A study of Mus musculus with 6 samples.

Results

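Catecholamines are made in the chromaffin cells of the adrenal medulla. Tyrosine hydroxylase (Th) turns tyrosine into DOPA and sets the pace of the pathway, aromatic amino acid decarboxylase (Ddc) turns DOPA into dopamine, and after a further hydroxylation phenylethanolamine N-methyltransferase (Pnmt) turns noradrenaline into adrenaline. Th cannot work without the cofactor tetrahydrobiopterin (BH4), which GTP cyclohydrolase (Gch1), 6-pyruvoyltetrahydropterin synthase (Pts) and sepiapterin reductase (Spr) build from GTP in that order, and which dihydropteridine reductase (Qdpr) regenerates after each turn of Th.

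Signals of these 7 genes are described here in whole adrenal glands of male mice aged 12 weeks from the hypertensive strain BPH and the hypotensive strain BPL, strains bred apart by selection on blood pressure. There were 3 arrays per strain, and no agent or engineered allele is named in the labels. The genes were chosen by name, with earlier results of these data known. Every probe set that the platform annotation gives to one of them alone was taken. That gave 8 probe sets for 7 genes, of 10833 probe sets for 8251 genes with a single symbol. All 8 were bright enough to be tested, as were 7453 probe sets in all. Dbh, the hydroxylase between Ddc and Pnmt, was not analysed here.

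Nothing in the labels ties each array to a separate animal, and p-values here rest on array-to-array spread that may be partly technical. Array medians of the deposited values ran from 945 to 1144 before the median scaling applied here, and the number of arrays limits the precision. The glands were not dissected, and fewer chromaffin cells and less RNA per cell cannot be told apart. Of 23 other chromaffin cell markers 20 had a probe set, and their signals, taking the brightest probe set per gene, summed to between 271974 and 355870 on BPH arrays and between 177160 and 250481 on BPL arrays. For markers of the steroid-making cortex, 9 of 12 with a probe set, the sums were 683914 to 799322 on BPH arrays and 551903 to 720387 on BPL arrays. Skeletal muscle markers, all 18 with a probe set, summed to between 5915 and 7334 on BPH arrays and to 197055, 486152 and 32754 in BPL replicates 1, 2 and 3, with 11 of 16 tested genes called lower in BPH and 0 higher. Of 21 tested muscle probe sets 12 were called lower, where 0.926% of all tested probe sets were. Leaving out each array in turn gave 1 to 16 muscle genes called lower, with Acta1, the skeletal muscle actin, among them each time. Fat markers, 9 of 11 with a probe set, summed to between 153024 and 219219 on BPH arrays and between 206703 and 228881 on BPL arrays. As a measure of RNA quality, the 3′ control probe set of Gapdh was set against its 5′ counterpart, and the log2 ratio was 0.169 ± 0.074 in BPH and -0.0014 ± 0.0504 in BPL (SD, n = 3 each). For Actb the ratio was 1.08 ± 0.16 in BPH and 0.86 ± 0.06 in BPL (SD, n = 3 each), and for both controls every BPH array was above every BPL array. The part of fat and of RNA quality in the results below was not tested. For skeletal muscle, values without the muscle-rich arrays and with a muscle covariate are given, and for chromaffin and cortex signal, values relative to those markers.

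Th and Gch1, the rate-limiting enzymes of catecholamine and of BH4 synthesis, were the members called higher in BPH. Both Pnmt probe sets and Qdpr also had higher values on all BPH arrays but did not pass the test. The bases upstream of the RefSeq starts of Th and Gch1 (build GRCm38.p6) are shown because these are the called genes. Each sequence covers the 250 bases before the start, on the minus strand, at chr7:142899996-142900245 for Th and at chr14:47189414-47189663 for Gch1. Capitals mark, on either strand, the cAMP response element TGACGTCA or its core TGACG, which TGACGTCA contains, the GC box GGGCGG, the box CCAAT and the Egr1 motif GCGNGGGCG.

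Th: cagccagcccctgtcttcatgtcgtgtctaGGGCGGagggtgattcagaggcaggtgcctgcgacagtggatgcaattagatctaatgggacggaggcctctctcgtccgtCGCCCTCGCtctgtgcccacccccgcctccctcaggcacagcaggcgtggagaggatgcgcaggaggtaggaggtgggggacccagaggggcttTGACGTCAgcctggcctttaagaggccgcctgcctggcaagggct

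Gch1: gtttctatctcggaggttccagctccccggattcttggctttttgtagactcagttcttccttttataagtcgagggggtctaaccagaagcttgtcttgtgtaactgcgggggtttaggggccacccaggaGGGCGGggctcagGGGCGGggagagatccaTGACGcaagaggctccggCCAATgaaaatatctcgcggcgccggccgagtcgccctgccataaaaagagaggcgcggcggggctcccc

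The Th window held the full element TGACGTCA, beginning 45 bases before the start, and 1.55% of the 32851 RefSeq windows of this length held it. The Gch1 window held the core TGACG beginning 88 bases before the start, a core found in 17.8% of all windows. Among the windows of the other members in the table, 2 for Ddc and 1 each for Pts, Qdpr and Spr, none held TGACG. Pnmt had no window and could not be scanned. The GC box, present in 32.7% of all windows, stood in those of Th, Gch1, Pts, Qdpr and Spr. The Egr1 motif, in 4.70% of windows, stood in those of Th and Pts, and CCAAT, in 33.8%, in those of Gch1, Qdpr and 1 of the Ddc windows. Other motifs were scanned but are not marked in capitals. The AP-1 motif TGANTCA, in 6.75% of windows, stood in those of Th and in 1 for Ddc. TATAAA, in 12.4%, stood in those of Gch1 and in 1 for Ddc. None of the member windows held CAGCTG or AGAACA. These are letter matches and no measure of binding.

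Th had signals of 34660, 47889 and 30381 in BPH replicates 1, 2 and 3, against 12088, 14506 and 19621 in BPL replicates 1, 2 and 3. Every BPH array lay above every BPL array, and the highest BPL value came from replicate 3, the BPL array with the least skeletal muscle signal. BPL replicate 2, the array with the most muscle signal, lay above BPL replicate 1. The mean was 37643 ± 9127 in BPH and 15405 ± 3846 in BPL (SD, n = 3 each), 2.44 times as high in BPH. On the log2 scale the difference was 1.28, with a 95% interval of 0.74 to 1.82 (limma adjusted p = 0.023).

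Gch1 had signals of 3026, 4282 and 3105 in BPH replicates 1, 2 and 3, against 1273, 1230 and 1365 in BPL replicates 1, 2 and 3. The strains were far apart compared with the spread of BPL, whose coefficient of variation was 5.34%, against 20.3% in BPH. The log2 difference was 1.28, with an interval of 0.89 to 1.68 (limma adjusted p = 0.0058). Th and Gch1 thus rose by about the same amount, at ranks 104 and 103 among the increases of all tested probe sets, and replicate 2 was the highest BPH array for both.

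Pnmt was measured by a pair of probe sets with higher values on all BPH arrays that did not pass the test. The brighter one had 33585, 37050 and 30762 in BPH replicates 1, 2 and 3, against 12824, 17247 and 26346 in BPL replicates 1, 2 and 3. The log2 difference was 0.90, with an interval of 0.32 to 1.47 (limma adjusted p = 0.097). The other probe set had 26898, 36403 and 26280 in BPH and 7951, 11033 and 24067 in BPL, in the same order of replicates. Its difference was 1.19, with an interval of 0.36 to 2.02 (limma adjusted p = 0.12). On both, BPL replicate 3 stood close to the BPH arrays and BPL replicates 1 and 2 well below them. The BPL arrays varied by 36.7% and 59.6%, against 9.32% and 19.0% for BPH.

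Ddc, which also decarboxylates 5-hydroxytryptophan and is expressed outside the medulla, had signals of 4146, 6590 and 8171 in BPH replicates 1, 2 and 3, against 4742, 4413 and 5980 in BPL replicates 1, 2 and 3. The strains overlapped, with the lowest of the 6 values in BPH. The log2 difference was 0.27, with an interval of -0.30 to 0.84 (limma adjusted p = 0.57). It was 0.53 without BPH replicate 1 and 0.06 without BPH replicate 3.

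**Figure D1:**
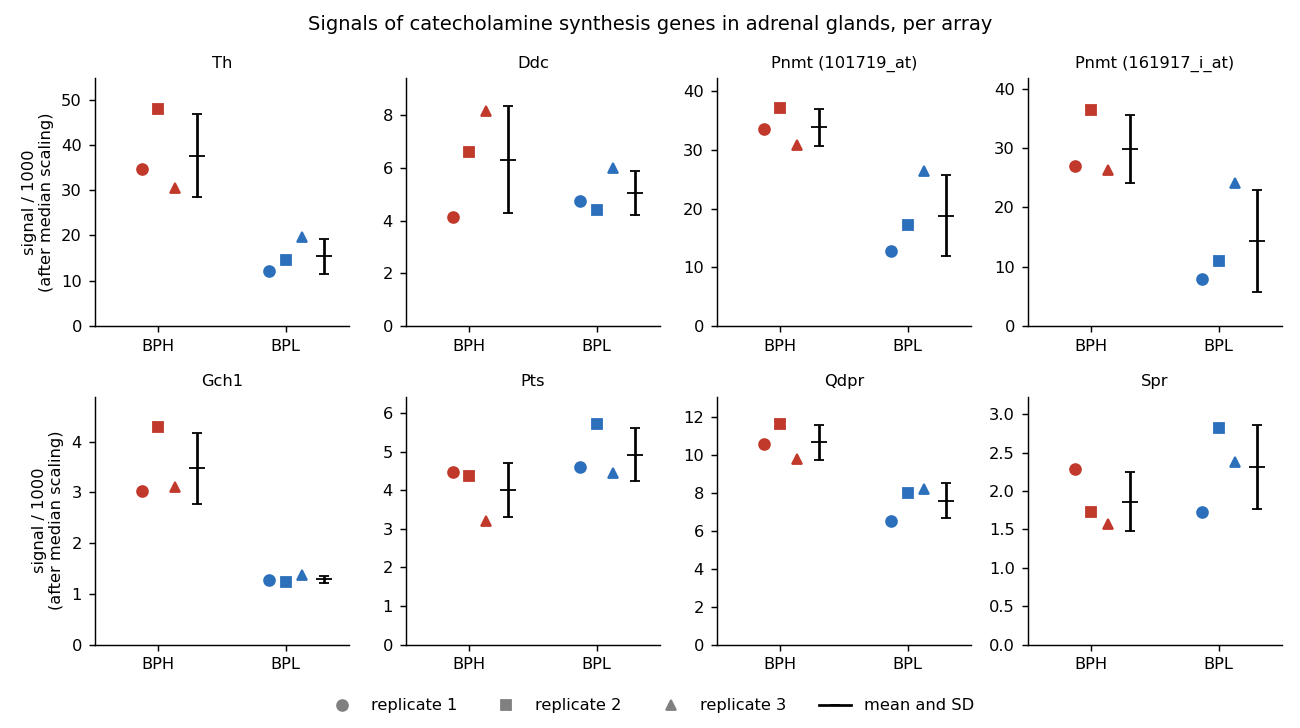
Signal of each probe set divided by 1000, after scaling of the array medians, for the 3 BPH and 3 BPL arrays. Symbols mark replicate numbers, and the bar gives the mean and SD over 3 arrays. Th, both Pnmt probe sets, Gch1 and Qdpr are higher on all BPH arrays, while Ddc, Pts and Spr overlap.

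The enzymes after Gch1 in BH4 synthesis had lower means in BPH, and neither passed the test. Pts had 4458, 4357 and 3194 in BPH replicates 1, 2 and 3, against 4607, 5705 and 4438 in BPL replicates 1, 2 and 3, a log2 difference of -0.29 with an interval of -0.71 to 0.13 (limma adjusted p = 0.40). Spr had 2290, 1727 and 1566 in BPH replicates 1, 2 and 3, against 1730, 2825 and 2379 in BPL replicates 1, 2 and 3, a log2 difference of -0.28 with an interval of -0.77 to 0.21 (limma adjusted p = 0.49). Without BPH replicate 3 the differences were -0.14 for Pts and -0.17 for Spr, and without BPL replicate 2 they were -0.18 and -0.13. Spr was also at -0.42 without BPH replicate 1 and -0.46 without BPL replicate 1. Values of the strains overlapped for both genes, and both intervals lie below the estimate for Gch1.

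Qdpr, the recycling enzyme, had 10583, 11640 and 9819 in BPH replicates 1, 2 and 3, against 6542, 8027 and 8212 in BPL replicates 1, 2 and 3. The groups did not overlap and varied little, by 8.56% in BPH and 12.0% in BPL. The log2 difference of 0.48, with an interval of 0.12 to 0.85, did not pass (limma adjusted p = 0.15).

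Counted together, 2 of the 8 probe sets were called higher and 0 lower, where 3.18% of all tested probe sets were called higher and 0.926% lower by limma at an adjusted p under 0.05. At an unadjusted p under 0.05 the higher ones were Th, Gch1, both Pnmt probe sets and Qdpr, and again 0 were lower, where 14.2% of all tested probe sets were higher and 6.4% lower at that threshold. In 5 of the 8 all BPH arrays lay above all BPL arrays, and in 0 below, against 19.7% and 7.97% of all tested probe sets. The median log2 difference was 0.69 over the 8 probe sets and 0.08 over all tested. Pnmt gives 2 of the 8 probe sets, so it weighs more than the other genes in these counts and in the median. By gene, 2 of 7 were called higher and 4 of 7 had an unadjusted p under 0.05 by limma.

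**Figure D2:**
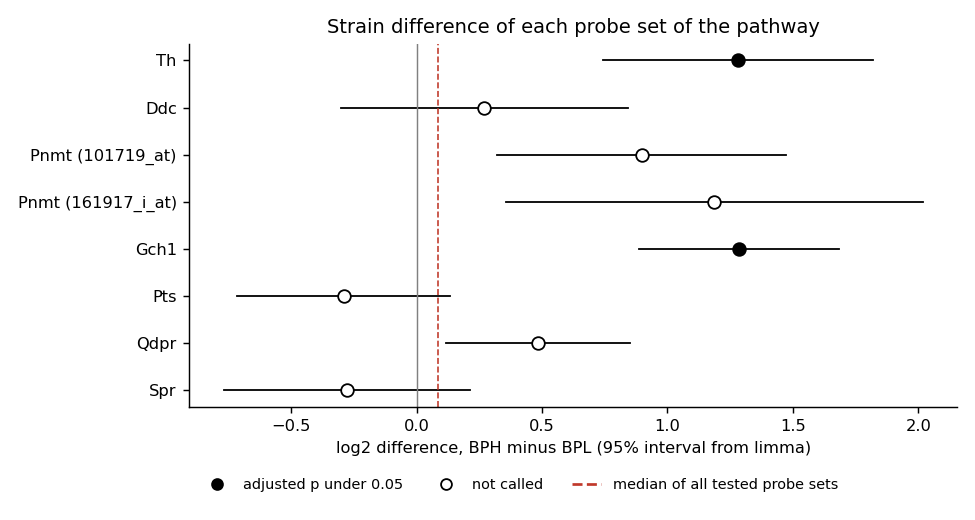
Log2 difference, BPH minus BPL, of each probe set with its 95% interval from limma. Filled points passed an adjusted p of 0.05, and the dashed line is the median of all tested probe sets, 0.08. Th and Gch1 are the filled points, both at 1.28.

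The call of Th depended on single arrays and that of Gch1 did not. Without BPL replicate 1, BPL replicate 2, BPH replicate 1 or BPH replicate 2, Th stood at 1.12, 1.25, 1.33 and 1.09 and was not called (limma adjusted p from 0.067 to 0.095). Gch1 was called without each of the 6 arrays in turn, at 1.13 to 1.37. With mean skeletal muscle signal as a covariate, which itself differs between the strains, neither was called. Without the muscle-rich BPL replicates 1 and 2 together, a comparison of 3 arrays with 1 whose spread is assumed to be that of BPH, the difference was 0.91 ± 0.29 for Th and 1.22 ± 0.27 for Gch1 (SE, limma adjusted p = 0.30 and 0.11). In that comparison the Pnmt probe sets stood at 0.35 and 0.29, and 0 members were called. Without BPL replicate 3 alone, both Pnmt probe sets were called, at 1.17 and 1.63 (limma adjusted p = 0.018 and 0.0067).

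Ratios within an array do not depend on its scaling apart from the pseudocount, and they set 1 step of the pathway against another. The strain difference of a ratio equals the difference between the values of its members given above, so its size adds nothing to them. Gch1 enters several of the ratios. The level of a ratio has no meaning because probe sets differ in brightness, so the comparison is of its values between strains. The log2 ratio of Gch1 to Pts was -0.53, -0.02 and -0.04 in BPH replicates 1, 2 and 3 and -1.71, -2.04 and -1.57 in BPL replicates 1, 2 and 3, a difference of 1.57. Gch1 over Spr differed by 1.56, from means of 0.83 ± 0.43 in BPH and -0.73 ± 0.34 in BPL. Gch1 over Qdpr differed by 0.80. The groups were separate for all of these ratios.

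Th over Ddc was 3.00, 2.82 and 1.87 in BPH replicates 1, 2 and 3 and 1.31, 1.67 and 1.68 in BPL replicates 1, 2 and 3, a difference of 1.01 with no overlap. BPH replicate 3, the array with the most Ddc and the least Th among BPH, was the closest to BPL. Pnmt over Ddc differed by 0.63 and overlapped. By 2-sided exact permutation test the 4 ratios without overlap gave p = 0.1, the smallest that 3 against 3 arrays allow, and an adjusted p of 0.13 over the 5 ratios, while Pnmt over Ddc gave p = 0.3.

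**Figure D3:**
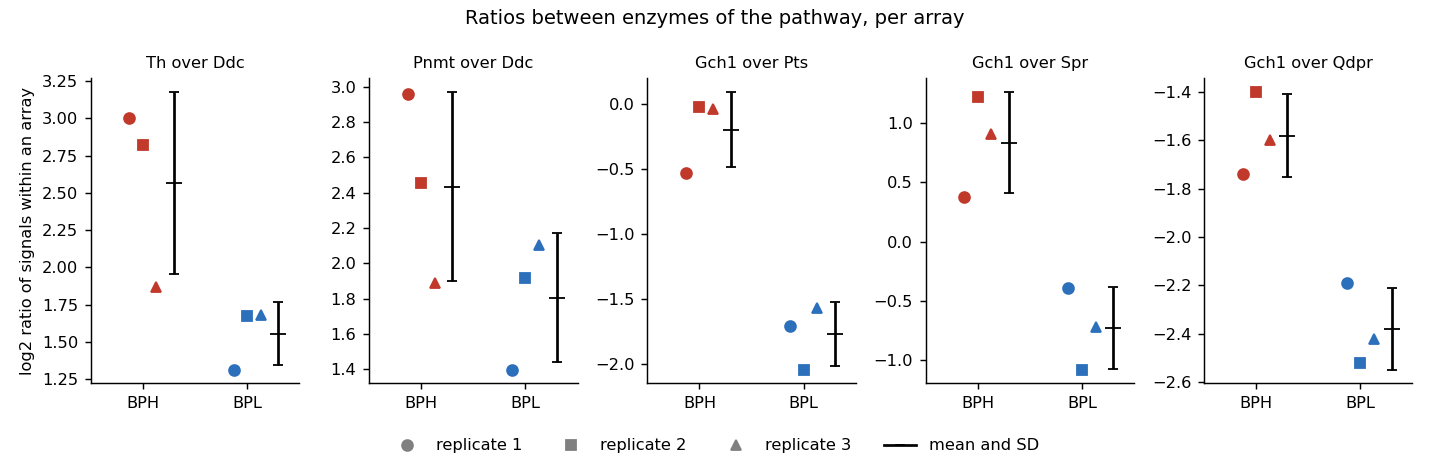
Log2 ratio of the signals of paired enzymes within each array, for BPH and BPL, with symbols for replicate numbers and the mean and SD over 3 arrays. Each panel has its own vertical scale, which does not start at 0. The ratio of Gch1 to Pts is between -0.53 and -0.02 in BPH and between -2.04 and -1.57 in BPL.

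The mean log2 signal of the 14 tested chromaffin markers outside the pathway was 13.11 ± 0.13 in BPH and 12.53 ± 0.13 in BPL (SD, n = 3 each), higher by 0.58 (2-sided exact permutation p = 0.1). Of the 20 tested probe sets of these markers, 4 were called higher, against 3.18% of all tested probe sets. Of the 14 genes, 4 were called higher and 0 lower. They were neuropeptide Y (Npy) at 1.47, the neuronal hydrolase Uchl1 at 1.20, the granule protein Scg2 at 0.84 and the adhesion molecule Ncam1 at 0.77 on 1 of its probe sets. Chga and Chgb, granins that pack catecholamines in granules, had differences of 0.53 and 0.26 on their brightest probe sets and were not called. The count was 1, Uchl1, without BPL replicate 1, BPL replicate 2, BPH replicate 1 or BPH replicate 2, it was 2 without BPH replicate 3, and it was 2 with the authors' own scaling. Without BPL replicates 1 and 2 together, 0 of the 14 were called by limma.

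Set against that marker mean, Th stood at 2.12, 2.31 and 1.78 log2 units in BPH replicates 1, 2 and 3 and at 1.13, 1.40 and 1.60 in BPL replicates 1, 2 and 3, a difference of 0.70. Gch1 differed by 0.70 as well, from -1.28 ± 0.16 in BPH and -1.98 ± 0.07 in BPL. Neither gene's strains overlapped. Pts and Spr were lower on all BPH arrays by this measure, by differences of -0.87 and -0.86. Each difference is the gene's own log2 difference minus the 0.58 of the markers, so its size adds nothing to the values above. Before that subtraction Pts and Spr stood at -0.29 and -0.28 and overlapped between the strains. Whether their signal comes from chromaffin cells was not tested. Qdpr, at -0.10, Ddc, at -0.31, and Pnmt, at 0.31 and 0.60, overlapped. How far these values depended on single arrays differed by gene. Without each array in turn Th stood at 0.57 to 0.84 and Gch1 at 0.61 to 0.77. Pts stood at -1.02 to -0.72 and Spr at -1.07 to -0.67 in the same way. Pnmt stood at 0.11 and 0.30 without BPL replicate 1 and at 0.51 and 0.98 without BPL replicate 3, Ddc at -0.12 without BPH replicate 1 and -0.52 without BPH replicate 3, and Qdpr between -0.16 and -0.02 without each array in turn. The exact permutation p was 0.1 for Th, Gch1, Pts and Spr (adjusted p = 0.2 over the 8 probe sets) and from 0.3 to 0.5 for the rest. With Chga and Chgb alone as the marker mean, Th differed by 0.88, Gch1 by 0.89 and Pnmt by 0.50 and 0.79. Qdpr then turned positive, at 0.086, while Ddc stood at -0.13, Pts at -0.69 and Spr at -0.67. Against 9 cortex markers, a comparison added after the data were seen, Th and Gch1 differed by 1.01 and 1.02 and Ddc by 0.0050. Pnmt, at 0.63 and 0.92, and Qdpr, at 0.22, were then higher on all BPH arrays. Pts and Spr were lower on all of them, at -0.55 and -0.54, again after subtraction of a marker mean that was higher in BPH. Apart from Ddc, each gave an exact permutation p of 0.1 (adjusted p = 0.11 over the 8 probe sets). Separation of Pnmt and Qdpr thus depended on the markers chosen.

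**Figure D4:**
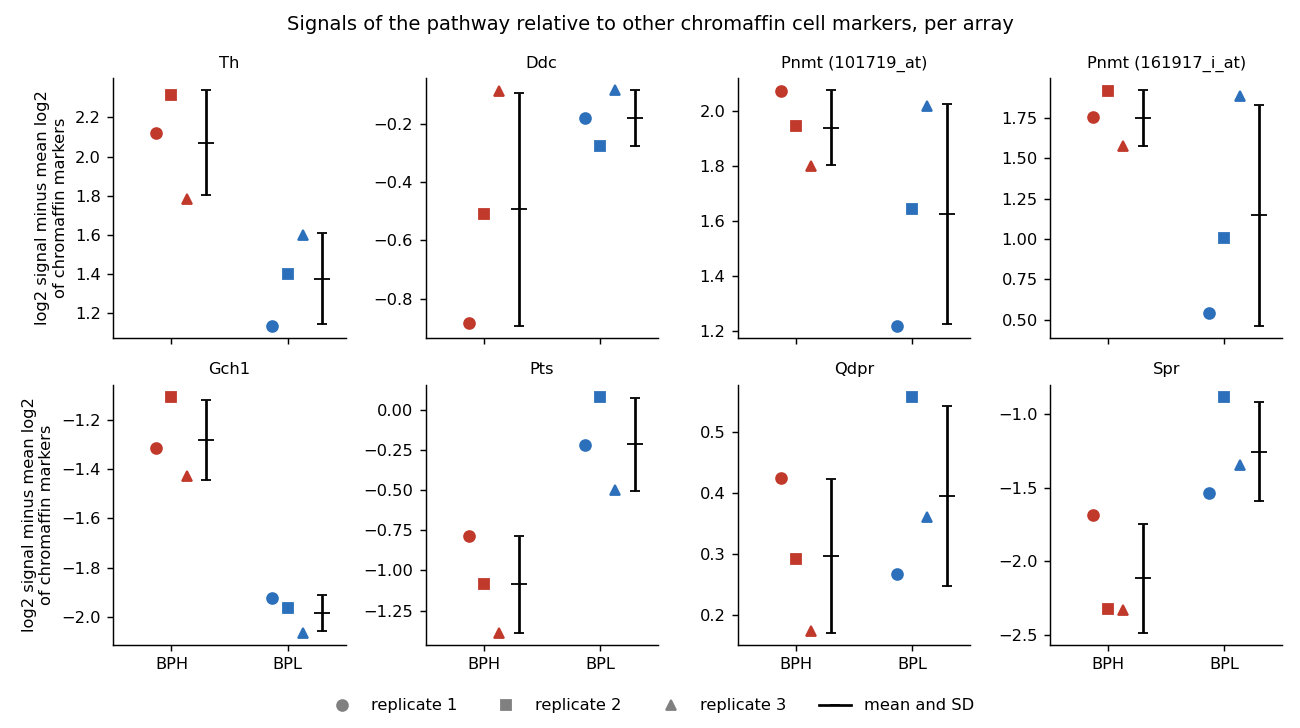
Log2 signal of each probe set minus the mean log2 signal of 14 other chromaffin markers on the same array, for BPH and BPL, with the mean and SD over 3 arrays. Vertical scales differ between panels. Th and Gch1 are higher on all BPH arrays, and Pts and Spr lower. Without this subtraction Pts and Spr overlap between the strains.

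Other genes around the pathway mostly did not pass. Of 4 tested genes of BH4 recycling and alternative reduction, 0 were called by limma, and 0 had an unadjusted p under 0.05, which 20.6% of all tested probe sets had. Pcbd1, the dehydratase that works with Qdpr, had a difference of 0.34 ± 0.22, and the carbonyl reductase Cbr1, which can replace Spr in part, 0.21 ± 0.27 (SE). The other BH4 users with a probe set, Tph1, Nos1, Nos2 and Nos3, were too dim to be tested, with strain means of 54.4 to 588. Of 4 tested genes that supply the cofactors of Ddc and Pnmt, 0 were called by limma and 1 had an unadjusted p under 0.05. Examples are Pdxk, which makes pyridoxal phosphate, at 0.17 ± 0.15 (SE), and Ahcy, which clears the product of methylation, at 0.29, 0.15 and -0.41 on its 3 probe sets.

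Of 8 tested genes of catecholamine storage, uptake and breakdown and of amino acid transport, 1 was called. That is 1 of the 11 tested probe sets of the list, where 3.18% of all tested probe sets were called higher. Slc3a2, the heavy chain of the transporter that takes up tyrosine and DOPA, had a mean of 33239 in BPH and 13494 in BPL, a difference of 1.30 ± 0.20 (SE, limma adjusted p = 0.010), which was not called without BPH replicate 1 or BPH replicate 2 or without BPL replicates 1 and 2 together. Its light chain Slc7a5 had 0.22 ± 0.16. The oxidase Maoa, which breaks catecholamines down, had 0.33 ± 0.17 on its tested probe set. Of 14 tested kinases, phosphatase subunits and 14-3-3 proteins that act on Th protein or related substrates, 1 was called, the 14-3-3 protein Ywhaq at 0.76 ± 0.15 (SE, limma adjusted p = 0.026), whose brighter probe sets gave 0.19 and 0.15 and were not called. Its call held without BPL replicate 1 and was lost without each of the other arrays. It is 1 of the 18 tested probe sets of this list, where 3.18% of all tested were called higher. Of 4 tested receptors of the medulla, 0 were called by limma and 2 had an unadjusted p under 0.05, in opposite directions. Adcyap1r1, the PACAP receptor, had -0.94 ± 0.30 (SE, limma adjusted p = 0.13). Agtr2, an angiotensin II receptor, had 0.64 ± 0.19 (SE, limma adjusted p = 0.11) and was called higher with the stricter filter.

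Transcription factors listed for action at Th or Pnmt had more calls, with 7 of 21 tested genes higher and 0 lower. By probe set 10 of 26 were called higher, against 3.18% of all tested probe sets. The list was chosen with earlier results of these data known, so its share of calls is no independent result. The largest were Junb, Fos, Nr4a2 and Egr1, at 3.06 to 5.10 on their called probe sets, and most of the 7 are immediate early genes. The same 7 genes were called without BPL replicates 1 and 2 together, and Junb alone with the skeletal muscle covariate. Gata3, a factor of sympathoadrenal identity, had 0.40 ± 0.20 (SE) and was not called. Phox2a, another such factor, had means of 748 in BPH and 191 in BPL and was below the intensity filter. With no filter it was called, at 1.27 (limma adjusted p = 0.0090). The glucocorticoid receptor Nr3c1, with means of 129 in BPH and 315 in BPL, was also below the filter. The medians were 0.36 for the transcription factors, 0.21 for storage and breakdown, 0.18 for BH4 recycling, 0.10 for Th regulators, 0.04 for receptors and -0.04 for cofactor supply, against 0.08 over all tested probe sets.

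**Figure D5:**
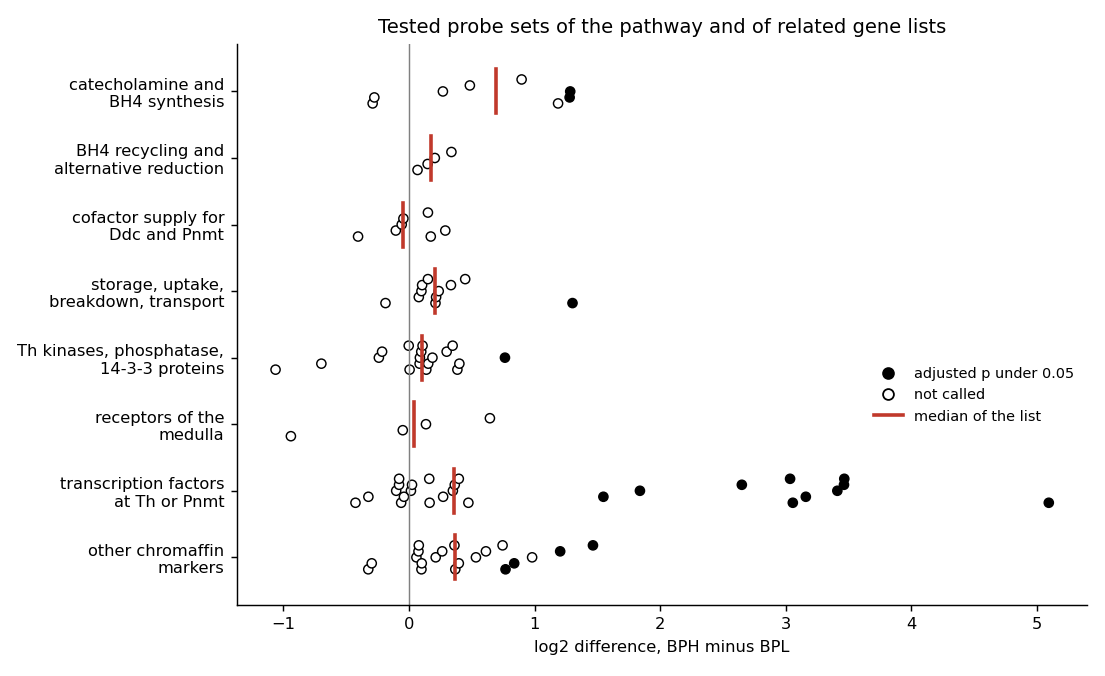
Log2 difference, BPH minus BPL, of every tested probe set of the pathway and of 7 related lists. Filled points passed an adjusted p of 0.05, and the vertical bar is the median of each list. Most filled points lie among the transcription factors, up to 5.10.

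Likeness between genes was measured among 6621 other tested probe sets with a named gene. It is the root mean square distance between log2 profiles over the 6 arrays, each centred on its own mean. Genes picked as nearest have nearly the strain difference and spread of the member by construction. Their differences and calls, also with arrays left out, are thus no separate result. Nearest to Th were Nr5a1, a nuclear receptor of steroid-making cells, at a distance of 0.106, the UDP-glucose dehydrogenase Ugdh at 0.120 and Npy at 0.124, and all of them were called higher, at 1.24, 1.16 and 1.47. Those calls were lost without BPL replicate 2, BPH replicate 1 or BPH replicate 2, and for Nr5a1 and Npy also without BPL replicate 1. The Nr5a1 value is that of 1 probe set, and its brighter probe sets, at 0.96 and 0.44, were not called (limma adjusted p = 0.089 and 0.17). The sialyltransferase St3gal5 at 0.0988, the clock gene Per1 at 0.113 and the PX-domain protein Pxk at 0.126 were nearest to Gch1, called higher at 1.22, 1.15 and 1.29 and also without each array in turn. The histone acetyltransferase Hat1, Fam50a and the secreted Wnt modulator Dkk3 were nearest to Pnmt, at 0.0887 to 0.0999. Hat1 is listed by its dimmer probe set, with a log2 difference of 0.74, and its brighter probe set gave 0.32. Nearest to Ddc were Rrp1b, Mrvi1 and the macrophage receptor Csf1r, at 0.0944 to 0.140. None of these genes near Pnmt or Ddc was called.

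Among the members themselves, Pts and Spr were the closest pair, at a distance of 0.177, followed by Th and Gch1 at 0.189 and by Th and Pnmt at 0.246. The pair of Pnmt probe sets lay 0.244 apart, so differences of that size arise between probe sets of 1 gene. Gch1 and Spr were the farthest apart, at 0.842.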

How the data were processed

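The values deposited by the authors are signal intensities on a linear scale from Affymetrix arrays hybridised with biotin-labelled cRNA, per the labels' protocols. The submitters' processing notes name MAS5. The sources used here give neither its version nor its scaling target. Means of the deposited values, trimmed by 2% at each end, ran from 2501.3 to 2501.5, so the arrays were already on a common scale. The 66 control probe sets were left out. Each array was then scaled to the mean of the array medians, 1040, and a pseudocount of 203, the 20th percentile over all arrays, was added before log2. For dim genes the resulting differences are too small. The dimmest 40% of probe sets were not tested. limma 3.58.1 in R 4.3.3 (lmFit, eBayes, 2-sided) compared BPH with BPL over 7453 probe sets, with Benjamini-Hochberg adjustment and a threshold of 0.05, and was tested on simulated data. Printed signals are after scaling, and levels of different probe sets are not compared.

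Named genes were the 7 members, up to 4 called genes of each list, a few fixed pathway genes where measured, and the 3 genes nearest to Th, Pnmt, Ddc and Gch1. Cbr1, Pdxk, Ahcy, Slc7a5, Adcyap1r1, Agtr2 and the dim BH4 users were picked for mention with their values in view. The same holds for the other probe sets of Ywhaq, Nr5a1 and Hat1. The members, lists and alternatives were chosen with earlier results of these data known, and the cortex comparison after these data were seen. Symbols come from the platform annotation, and promoter windows from RefSeq (GRCm38.p6), where 6 of 7 members had one and Pnmt had none. No build is stated for the arrays. At most 1 probe set had an identical value on any pair of arrays.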

Additional observations from a re-analysis of the deposited data

How the results depend on the processing

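The 3 arrays per strain limit what could be called. Main counts were 237 higher and 69 lower of all tested probe sets, with 2 member probe sets higher and 0 lower. Counts over all tested probe sets were 106 higher and 21 lower with no filter, 77 and 10 without BPL replicates 1 and 2 together, and 6 and 0 with mean skeletal muscle signal as a covariate, a term partly confounded with strain. Leaving out each array in turn gave 81 to 283 higher and 20 to 92 lower. Member probe sets called higher numbered 1 with no filter, 4 with the stricter filter, 1 to 4 without each array, and 0 with the covariate. Leaving out BPL replicates 1 and 2 together also gave 0. In 16 alternative fits Gch1 was called in 14 and Th in 9, and both differences were positive in all 16. Th was 1.28 with no filter (limma adjusted p = 0.067). The covariate gave 0.70 for Th, 1.13 for Gch1 and 0.098 for the brighter Pnmt probe set, and turned Ddc to -0.15 and the dimmer Pnmt probe set to -0.20. The brighter Pnmt probe set was called with the stricter filter and with a trended and robust variance, at 0.90 (limma adjusted p = 0.037 and 0.047), and the dimmer with the stricter filter. With the authors' own scaling, calls split into 195 higher and 99 lower, and with quantile normalization into 182 and 89. The median of all probe sets was then -0.02 and -0.00014, against 0.08, while Th stood at 1.16 and 1.10 and Gch1 at 1.18 and 1.22, all called. The 14-marker difference of Gch1 was 0.54 with the higher pseudocount. Same-numbered arrays of the strains did not deviate together (correlations of -0.06, -0.05 and -0.18), so numbers were not taken as pairs; a replicate block gave 172 higher and 67 lower and kept Th and Gch1 called. Other causes of these changes were not tested.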
